A study of Mus musculus with 16 samples.

Results

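The comparison described here is that of PKR knockout (KO) with wild-type (WT) spleen cells after 1 day of imiquimod. It holds 4 of the 16 libraries of the series, 2 KO and 2 WT, chosen by their labels for genotype and day. The donors were male C57BL/6 mice whose shaved back skin had received 62.5 mg of a cream with 5% imiquimod daily. All 4 libraries share this treatment, no group received cream without imiquimod, and day 0 stands for 0 days of treatment. Spleen cell suspensions, strained at 70 µm and freed of red cells by lysis, were combined from 2 mice per library, so the spread between mice inside a pool was not measured. Total RNA was depleted of ribosomal RNA and sequenced with strand information. The sources used here give neither the age of the mice nor the part of the gene that the knockout removes. The design text describes the mice as independent but does not say whether the 2 pools of a group were handled apart. The p-values therefore measure only the spread between libraries of a group, estimated over all 16 libraries.

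PKR, the product of Eif2ak2, is a kinase that binds double-stranded RNA and then phosphorylates the translation factor eIF2alpha, which lowers protein synthesis and favours translation of ATF4. ATF4 in turn switches on genes for amino acid uptake and synthesis. Type I interferon induces Eif2ak2 itself together with a large set of antiviral genes, and imiquimod, an agonist of Tlr7, triggers interferon release by plasmacytoid dendritic cells. In bulk RNA of this kind, fewer cells of a type and less RNA per cell cannot be told apart.

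Eif2ak2, the targeted gene, lies on the minus strand of chromosome 17 (78852564 to 78882573, mm10). Its main transcript stood at 43.0 and 37.0 CPM in the KO libraries, against 100.6 and 96.1 CPM in the WT libraries. CPM is the fragment count over the library's total after TMM scaling for composition, the unit of every level below. Both KO libraries were below both WT libraries, yet transcript remained in the knockout, with 1811 and 1807 fragments in the KO libraries and 6238 and 7464 in the WT libraries. The log2 difference, KO minus WT, was -1.30 (SE 0.283), and it did not pass the test over all genes (adjusted p = 0.117, edgeR quasi-likelihood test). The 3 other annotated transcripts, which are noncoding, stood at 0.325 to 0.432 times their WT mean, close to the 0.407 of the coding transcript. As the deleted part is not given, fragments outside it say nothing about the label. Eif2ak2 was also lower in both KO libraries on days 0 and 5, while on day 2 the libraries labelled KO, at 47.5 and 21.5 CPM, overlapped those labelled WT, at 32.8 and 42.5 CPM. Eif2ak2 therefore does not bear out the genotype labels of day 2, and day 2 values below are given by label. Without the 4 libraries of day 2 the same test gave an adjusted p of 0.00019 for Eif2ak2, and with the 4 day 1 libraries alone 0.000462.

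The start of Eif2ak2 and those of 4 interferon-stimulated genes are shown. They carry the core of the interferon-stimulated response element, GAAA, then 2 bases of any kind, then GAAA. The 4 were taken in order of p in edgeR's day 1 test from the listed genes with a match in the stretch shown. All 5 genes were lower in both KO libraries, and as the 4 were chosen by p, this order is not a separate result. Each stretch runs from 120 bases before to 30 bases after the annotated start (RefSeq, GRCm38.p6), 5′ to 3′ on the strand of the gene. Capitals mark the motif, which was searched on both strands. They lie at chr17:78882543-78882692 (Eif2ak2), chr19:34601939-34602088 (Ifit1bl1), chr4:40239796-40239945 (Ddx58), chr4:156200789-156200938 (Isg15) and chr11:83020781-83020930 (Slfn8), all on the minus strand.
Eif2ak2: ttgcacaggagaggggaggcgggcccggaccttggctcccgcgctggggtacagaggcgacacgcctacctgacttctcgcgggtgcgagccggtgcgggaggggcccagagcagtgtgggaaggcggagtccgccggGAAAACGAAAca
Ifit1bl1: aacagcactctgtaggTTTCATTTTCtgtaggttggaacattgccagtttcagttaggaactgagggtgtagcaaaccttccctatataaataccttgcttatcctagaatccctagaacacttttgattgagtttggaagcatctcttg
Ddx58: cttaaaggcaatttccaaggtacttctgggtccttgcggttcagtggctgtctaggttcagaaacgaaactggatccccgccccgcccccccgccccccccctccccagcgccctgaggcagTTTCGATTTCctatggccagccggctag
Isg15: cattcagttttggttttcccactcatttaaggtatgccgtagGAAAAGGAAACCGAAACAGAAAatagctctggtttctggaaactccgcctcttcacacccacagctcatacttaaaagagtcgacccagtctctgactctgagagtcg
Slfn8: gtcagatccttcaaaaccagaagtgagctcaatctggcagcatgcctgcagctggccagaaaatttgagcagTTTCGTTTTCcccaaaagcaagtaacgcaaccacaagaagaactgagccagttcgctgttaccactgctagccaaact
The motif occurred in the RefSeq promoter windows of 21 of the 45 interferon-stimulated genes with an entry in the table (46.7%), against 462 of 11328 tested genes (4.08%) and 3.44% of all promoters. In Isg15 it was matched at 3 overlapping positions. The median log2 difference was -0.34 in the 21 genes with the motif and -0.31 in the 24 without it, and a match describes letters, not binding.

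Before the gene results, the composition of the libraries needs stating, since the WT libraries of day 1 stood apart. Totals were 41538947 and 45617656 fragments in KO and 51481732 and 65035498 in WT. Fragments assigned to the coding transcripts kept here made up 43.2% to 45.7% of a KO library, 52.96% to 54.01% of a WT library and 37.2% to 43.6% of the other 12 libraries of the series. The TMM factor was 1.01 to 1.07 in KO, 1.19 to 1.20 in WT and 0.933 to 1.02 in the other 12. On day 1, genotype and library composition therefore cannot be told apart. Replicates ranked genes alike (Spearman correlation across genes 0.992 in KO and 0.993 in WT), and neither pair was a repeat of 1 library, with chi-square per gene of 12.3 in KO and 22.9 in WT. Without composition scaling the median log2 difference of all genes was -0.22, against -0.02 with it. The 12 libraries of other days enter the day 1 test through the shared estimate of spread. They also enter the choice of transcript, the filter on low counts and the TMM scaling.

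Of 18745 genes tested, 35 passed the threshold of adjusted p under 0.05 (0.187%). These were 27 higher in KO (0.144%) and 8 lower (0.0427%), and in all 35 the libraries of the genotypes did not overlap. Of the 35, 24 passed in none of the 4 fits that leave out 1 day 1 library. Most were not ordinary mRNAs, as 14 of the higher genes were loci of GENCODE's class TEC, single-exon transcripts that still await experimental proof. Protein-coding genes made up 9 of the higher and 5 of the lower calls. At unadjusted p under 0.05 there were 1718 genes (9.17%), 1118 of them higher (5.96%) and 600 lower (3.2%). Both KO libraries lay above both WT libraries for 21.2% of genes and below them for 26.1%. With 2 libraries a group, an exact permutation test of a single gene cannot go below p = 0.333, so the calls rest on the spread shared across genes. The number of calls changed with the libraries and tool used. The 4 day 1 libraries alone gave 331 calls among 17127 genes (244 higher and 87 lower), and 114 of the higher calls were TEC loci. The data without day 2 gave 74 calls and DESeq2 gave 183. Without composition scaling the split turned to 24 higher and 43 lower.

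**Figure D1:**
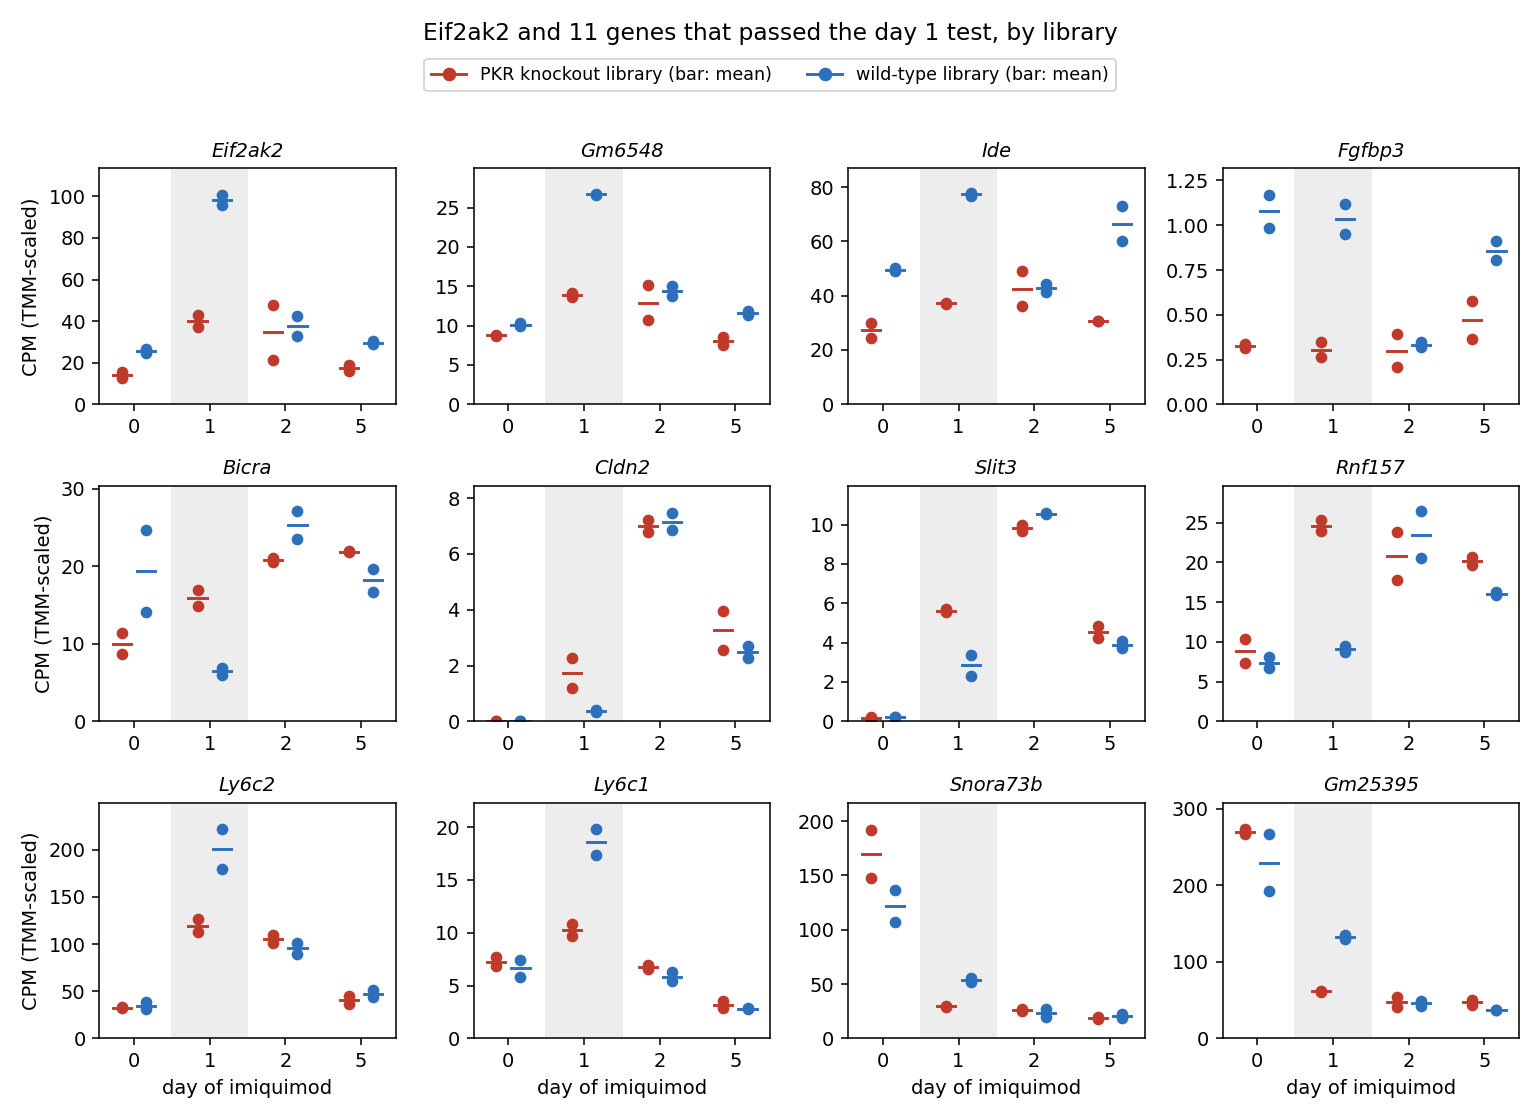
TMM-scaled CPM (vertical axis, from 0) by day of imiquimod for Eif2ak2 and 11 genes that passed the day 1 test; each point is 1 library, bars are means of 2, KO left of WT, day 1 shaded. Rnf157 stood at 25.3 and 23.9 CPM in KO against 9.53 and 8.75 in WT on day 1, and the genotypes overlapped on day 2.

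Of the higher coding genes, Rnf157 encodes an E3 ubiquitin ligase and stood at 25.3 and 23.9 CPM in KO and 9.53 and 8.75 CPM in WT (log2 difference 1.43, SE 0.171, adjusted p = 0.00104). The KO libraries were already at the level of day 2, which was 17.8 to 26.5 CPM over both genotypes, while the WT libraries were near that of day 0. Rnf157 passed the threshold whichever of the 4 day 1 libraries was left out, and it passed in 19 of 20 alternatives.

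Slit3, a secreted guidance protein, had its lowest levels on day 0 and its highest on day 2. It had 5.72 and 5.53 CPM in KO and 3.37 and 2.33 CPM in WT (log2 difference 0.99, SE 0.195, adjusted p = 0.0442), was at 0.105 to 0.234 CPM in the day 0 libraries and stood at 9.67 to 10.6 CPM on day 2. Slit3 passed in 1 of the 4 fits without a day 1 library, with a log2 difference of 1.25 without WT replicate 1 (adjusted p = 0.0337) and 0.73 without WT replicate 2 (0.673). Cldn2, which encodes a tight junction claudin, was listed at 0 in all 4 day 0 libraries. On day 1 it stood at 1.21 and 2.28 CPM in KO against 0.403 and 0.322 CPM in WT (log2 difference 2.28, SE 0.331, adjusted p = 0.00647). On day 2 it was between 6.77 and 7.45 CPM in every library. Cldn2 lies under the FPKM of 1 set for named genes and was picked after its values were seen, as were Shank1, Zfhx2, Fgfbp3, Ryr3, Gm42047, Gm6548, Gm25395, Snora73a, Slfn8, Hspa1a, Fos, S100a9 the TEC loci with their host genes, and list members named below only as calls of the day 1 libraries alone. Without KO replicate 2 or WT replicate 2, Cldn2 did not pass (adjusted p = 0.157 at most).

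Pou2f2, the B cell transcription factor Oct-2, stood at 82.6 and 74.8 CPM in KO and 40.3 and 51.4 CPM in WT (log2 difference 0.78, SE 0.155, adjusted p = 0.0442). It was between 42.8 and 52.1 CPM in the day 0 libraries, the level of WT on day 1. Leaving out any 1 of the 4 day 1 libraries ended the call of Pou2f2 (adjusted p = 0.108 to 0.424). Bicra, a subunit of a SWI/SNF chromatin remodelling complex, had 16.9 and 14.9 CPM in KO and 6.90 and 5.98 CPM in WT (log2 difference 1.30, SE 0.207, adjusted p = 0.0169). Atn1, the corepressor atrophin-1, had 6.98 and 5.53 CPM in KO and 2.13 and 2.60 CPM in WT (log2 difference 1.40, SE 0.247, adjusted p = 0.03). Shank1, a postsynaptic scaffold protein, and Zfhx2, a zinc finger homeobox protein, were higher in KO as well, with log2 differences of 1.35 and 1.17. Between day 1 and day 0 the log2 difference within KO was 0.66 for Bicra, 0.54 for Atn1, 1.27 for Shank1 and 0.06 for Zfhx2. Within WT it was -1.60 for Bicra, -1.46 for Atn1, -0.80 for Shank1 and -1.67 for Zfhx2. Bicra, Atn1 and Zfhx2 passed in none of the 4 fits that leave out a day 1 library (adjusted p up to 0.241, 0.328 and 0.466), and Shank1 in 1 of them (up to 0.287). With the GC correction the log2 difference was 1.21 for Bicra (adjusted p = 0.06), 1.29 for Atn1 (0.0573) and 1.10 for Zfhx2 (0.0675), so that these 3 calls were lost with values close to the uncorrected ones. These 4 mRNAs are rich in G and C, with a GC content of 57.4% to 62.0% against a median of 50.2% over the coding genes tested. On day 0 Bicra, Shank1 and Zfhx2 had the opposite order, both KO below both WT libraries, and Atn1 overlapped.

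The long noncoding RNA Gm42047 (chromosome 8, plus strand) had 57.3 and 34.4 CPM in KO and 16.8 and 14.9 CPM in WT (log2 difference 1.53, SE 0.206, adjusted p = 0.00647). The KO libraries differed from each other, and both were above both WT libraries. Gm42047 passed without any 1 of the libraries except WT replicate 2 (adjusted p = 0.14).

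Of the lower genes, Ide encodes insulin-degrading enzyme, a zinc metalloprotease, on chromosome 19. It stood at 37.3 and 36.9 CPM in the KO libraries, against 76.8 and 77.7 CPM in the WT libraries (log2 difference -1.06, SE 0.139, adjusted p = 0.00257). The replicates of each genotype nearly coincided. Ide was lower in both KO libraries on day 0 too, at 24.4 and 29.9 CPM against 50.01 and 49.1 in WT, and on day 5. The same test called Ide lower on day 0 (log2 difference -0.87, adjusted p = 0.0352). Its day 1 minus day 0 difference was -0.19 and did not pass (adjusted p = 0.708). On day 2 the genotypes overlapped, at 48.95 and 36.1 CPM in KO and 44.2 and 41.3 CPM in WT. It passed in 19 of 20 alternatives, the exception being the fit without KO replicate 2 (adjusted p = 0.0675).

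Fgfbp3, a binding protein for fibroblast growth factors, is 349 kb from Ide on the same chromosome. It had 0.261 and 0.348 CPM in KO and 0.952 and 1.12 CPM in WT (log2 difference -1.75, SE 0.351, adjusted p = 0.0487) and was also lower in both KO libraries on days 0 and 5. Within 1 Mb of Ide 21 other genes were tested and Fgfbp3 was the 1 that passed. Gm6548, a processed pseudogene on the same strand as Eif2ak2, starts 607 bases past the 3′ end of the main Eif2ak2 transcript. It stood at 14.2 and 13.6 CPM in KO and 26.8 and 26.6 CPM in WT (log2 difference -0.94, SE 0.143, adjusted p = 0.00647). It was the 1 of 52 genes tested within 5 Mb of Eif2ak2 that passed, and as a pseudogene copy its count is uncertain. Ryr3, an intracellular calcium channel, had 1.24 and 0.84 CPM in KO and 2.81 and 2.97 CPM in WT (log2 difference -1.48, SE 0.279, adjusted p = 0.0391). Eif2ak2, Ide, Fgfbp3, Gm6548 and Ryr3 shared 1 order: both KO below both WT libraries on days 0, 1 and 5, and overlap of the libraries labelled KO and WT on day 2. Fgfbp3 and Ryr3 passed in none of the 4 fits without a day 1 library (adjusted p up to 0.435 and 0.348), and Gm6548 in 1 of them (up to 0.138).

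Ly6c2 and Ly6c1 are neighbouring genes on chromosome 15 for Ly6C surface proteins, which mark inflammatory monocytes, are carried by some T cells and plasma cells, and are inducible by interferon. Ly6c2 stood at 112 and 126 CPM in KO and 222 and 179 CPM in WT (log2 difference -0.75, SE 0.145, adjusted p = 0.04). Ly6c1 stood at 10.8 and 9.7 CPM in KO and 19.8 and 17.4 CPM in WT (log2 difference -0.86, SE 0.155, adjusted p = 0.03). On day 0 the genotypes overlapped for both genes, with Ly6c2 at 32.9 and 32.4 CPM in KO and 38.9 and 30.7 CPM in WT. The sequences of the 2 genes are close, so fragments may have been split between them. Leaving out any 1 day 1 library ended both calls (adjusted p up to 0.409 for Ly6c2 and 0.273 for Ly6c1). Of the 17 monocyte markers listed, Ly6c2 among them, 13 had a log2 difference above 0 with all libraries. The median of these markers fell below 0 without KO replicate 2 and also without WT replicate 2. Their contrast with Ly6c2 therefore depended on single libraries.

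The last of the lower calls were a small nucleolar RNA and a small Cajal body RNA. Snora73b is a box H/ACA small nucleolar RNA that takes part in ribosomal RNA processing. It stood at 29.2 and 29.7 CPM in KO and 52.3 and 55.4 CPM in WT (log2 difference -0.87, SE 0.16, adjusted p = 0.0333). Snora73b passed in none of the 4 fits without a day 1 library (adjusted p = 0.0626 to 0.32). Gm25395, annotated as a small Cajal body RNA, stood at 62.4 and 61.2 CPM in KO and 134.6 and 130.5 CPM in WT (log2 difference -1.10, SE 0.151, adjusted p = 0.00294). In both the KO libraries were near the levels of day 2, which were 19.5 to 27.1 CPM for Snora73b and 41.2 to 53.9 CPM for Gm25395 over both genotypes. Day 0 levels were far higher, up to 192 CPM and 274 CPM. Their RNAs are shown as annotated in GENCODE (release M21, GRCm38), with the ACA that ends Snora73b 3 bases before its 3′ end in capitals. Snora73b lies at chr4:132352322-132352526 on the minus strand and Gm25395 at chr1:87776938-87777209 on the plus strand.
Snora73b: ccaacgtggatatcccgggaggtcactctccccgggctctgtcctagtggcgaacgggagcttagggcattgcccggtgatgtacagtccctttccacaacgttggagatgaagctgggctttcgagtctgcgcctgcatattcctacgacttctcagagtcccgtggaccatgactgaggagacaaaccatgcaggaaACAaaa
Gm25395: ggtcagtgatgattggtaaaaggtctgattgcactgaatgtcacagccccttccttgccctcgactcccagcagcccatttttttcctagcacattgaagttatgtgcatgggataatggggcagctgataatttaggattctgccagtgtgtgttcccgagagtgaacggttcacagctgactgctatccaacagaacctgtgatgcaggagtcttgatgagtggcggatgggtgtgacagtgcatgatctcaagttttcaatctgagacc
Snora73a, from the same host transcript, had 49.5 and 53.7 CPM in KO and 72.7 and 71.6 CPM in WT, and the host Snhg3 had 54.9 and 60.8 CPM in KO and 80.1 and 78.4 CPM in WT. Neither passed (adjusted p = 0.254 and 0.316). Small nucleolar RNAs as a class had 1 of 250 called lower and a median of -0.05, with 5 higher and 16 lower at unadjusted p under 0.05. Snora73b overlaps its host gene on the same strand, and fragments of the 2 cannot be told apart fully.

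The interferon response itself was tested with a list of 60 interferon-stimulated genes, of which 59 were expressed enough to test. None passed in edgeR's test (smallest adjusted p = 0.0532), 17 had an unadjusted p under 0.05 and all of these were lower in KO. DESeq2 called 2 of them lower (Ifit2 and Ifit1bl1), as edgeR did without day 2, edgeR on the day 1 libraries 1 (Ddx58), and limma 1 (Ifit2, with FPKM + 1) or 0. The log2 difference was below 0 in 58 of 59, against 52.8% of all genes, and both KO libraries lay below both WT libraries in 43, against 26.1% of all genes. The median was -0.31, in a range from -0.81 to 0.04. Ifit2, which encodes a protein that binds viral RNA, stood at 68.8 and 54.1 CPM in KO and 111 and 88.8 CPM in WT (log2 difference -0.70, SE 0.143, adjusted p = 0.0532). Its neighbour Ifit1bl1 stood at 46.5 and 42.1 CPM in KO and 86.1 and 64.97 CPM in WT (log2 difference -0.77, SE 0.185, adjusted p = 0.114). In both genes WT replicate 1 was the highest library.

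Isg15, a ubiquitin-like modifier, had 48.8 and 44.8 CPM in KO and 77.9 and 53.7 CPM in WT (log2 difference -0.49, adjusted p = 0.45). Irf7, the transcription factor that amplifies interferon production, had 171 and 156 CPM in KO and 241 and 184 CPM in WT (log2 difference -0.38, adjusted p = 0.718). In both genes the KO libraries were below the WT libraries, and neither passed. Slfn8, an interferon-induced Schlafen gene, had 124 and 105 CPM in KO and 143 and 141 CPM in WT (adjusted p = 0.551). The median log2 difference of the list between day 1 and day 0 was 1.65 in KO and 1.98 in WT. The median of the KO minus WT differences was -0.01 on day 0. On day 1 it was below 0 in all 20 alternatives, between -0.52 without composition scaling and -0.22 without WT replicate 1.

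Of the interferon genes themselves, only Ifnb1 and Ifng are described here. Ifnb1 had 0 fragments in all 4 libraries, which allows up to 3 fragments in each, or at most 0.0722 and 0.0658 CPM in KO and 0.0583 and 0.0461 CPM in WT before TMM scaling (counting error only). Ifng, made by T and NK cells, had 1.07 and 0.84 CPM in KO and 1.23 and 1.11 CPM in WT (adjusted p = 0.868). Of 14 plasmacytoid dendritic cell markers tested none passed and 10 had a difference below 0 (median -0.18, 1 higher and 2 lower at unadjusted p under 0.05, none by DESeq2 or limma). Tlr7, the receptor of imiquimod, had 47.5 and 43.6 CPM in KO and 53.6 and 54.9 CPM in WT (adjusted p = 0.572).

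Genes of the interferon gamma response and of antigen presentation had 32 of 36 differences below 0, a median of -0.20 and none called (5 at unadjusted p under 0.05, none by DESeq2 or limma). With the 4 day 1 libraries alone, 4 of 36 were called lower (the GTPase genes Gbp6, Iigp1, Tgtp1 and Tgtp2). Over all genes that fit called 87 of 17127 lower. Gbp9, an interferon-induced GTPase, had 123 and 108 CPM in KO and 154 and 157 CPM in WT (log2 difference -0.43, adjusted p = 0.28). B2m, the light chain of MHC class I, had 914 and 998 CPM in KO and 1221 and 1207 CPM in WT (log2 difference -0.34, adjusted p = 0.387). Of 21 sensors and regulators of double-stranded RNA none passed and 13 were below 0 (median -0.07, 1 at unadjusted p under 0.05, none by DESeq2 or limma). That 1 was Ddx58, the sensor RIG-I, which the day 1 libraries alone called lower, at 81.4 and 80.4 CPM in KO and 108 and 107 CPM in WT (adjusted p = 0.199).

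**Figure D2:**
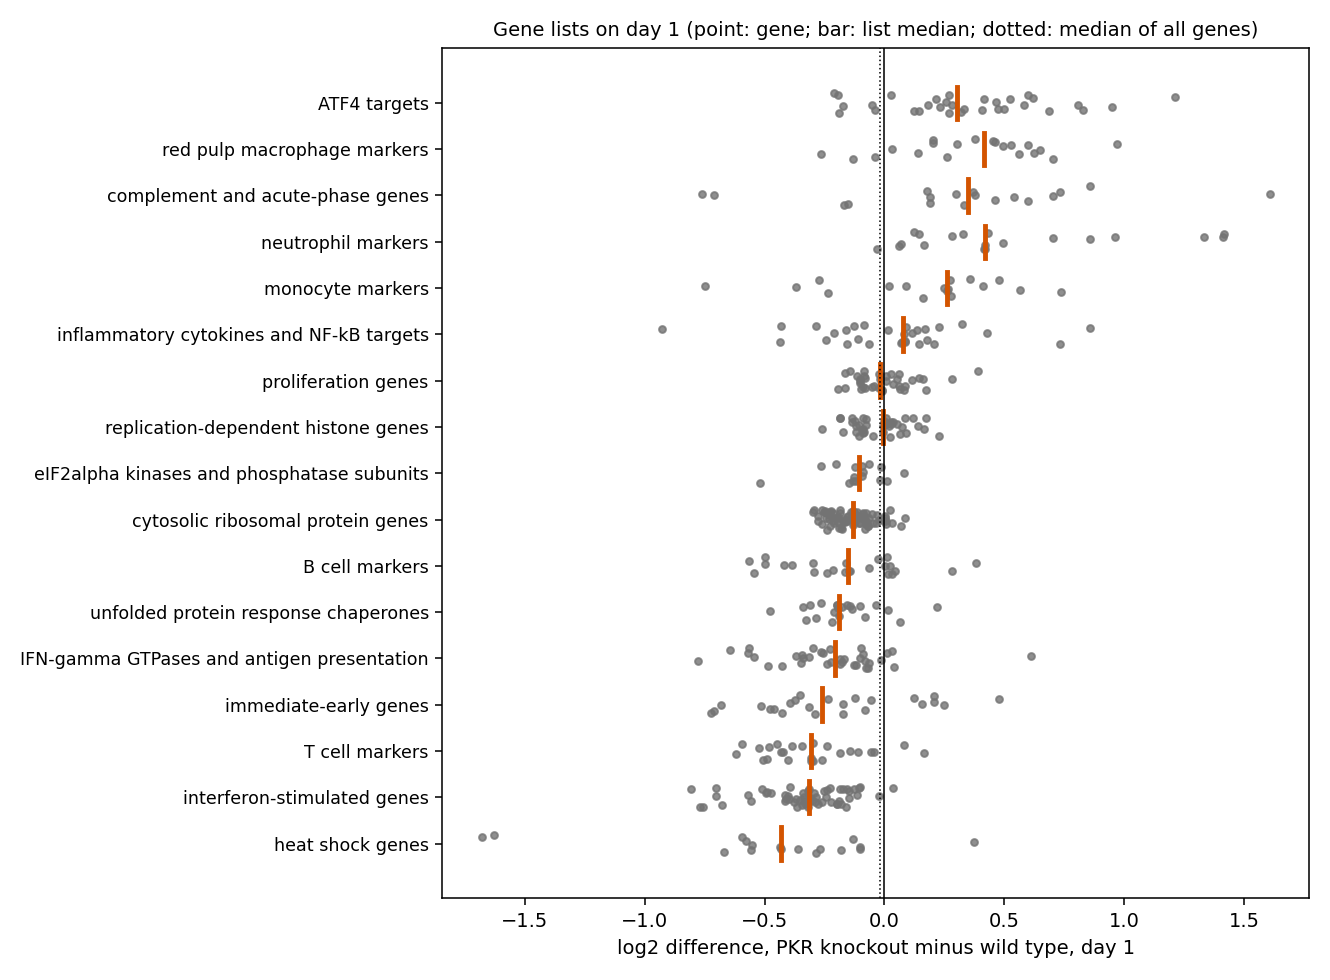
Log2 difference, KO minus WT on day 1, of every tested gene (points) of 17 lists; orange bars are list medians and the dotted line the median of all genes. Interferon-stimulated genes had a median of -0.31 and heat shock genes of -0.43, while ATF4 targets had 0.30.

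Targets of ATF4, whose translation eIF2alpha phosphorylation favours, had mostly positive differences. Of 32 tested 26 had a difference above 0 (47% of all genes), 21 had both KO above both WT libraries (21.2% of all genes), and the median was 0.30. None passed in edgeR's test. At unadjusted p under 0.05 there were 11, all higher in KO, and DESeq2 called 2 higher (Slc1a4 and Pck2), limma 0, and edgeR 1 on the day 1 libraries (Pck2) and 1 without day 2 (Slc1a4). Slc1a4, a transporter of neutral amino acids, had 11.8 and 7.79 CPM in KO and 4.63 and 3.80 CPM in WT (log2 difference 1.21, SE 0.289, adjusted p = 0.104). Pck2, the mitochondrial phosphoenolpyruvate carboxykinase, had 57.1 and 57.7 CPM in KO and 40.8 and 39.2 CPM in WT (log2 difference 0.52, SE 0.128, adjusted p = 0.109). Asns, asparagine synthetase, had 16.4 and 19.5 CPM in KO and 13.5 and 10.5 CPM in WT (adjusted p = 0.691). The transcript of Atf4 itself did not share the direction, at 134 and 113 CPM in KO and 140 and 130 CPM in WT (adjusted p = 0.8). Ddit3, the stress factor CHOP, had 11.1 and 9.14 CPM in KO and 11.9 and 11.2 CPM in WT (adjusted p = 0.831). The median of the list was above 0 in all 20 alternatives, from 0.06 (limma, FPKM + 1) to 0.43 (without WT replicate 1).

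None of the 16 genes for the other eIF2alpha kinases, eIF2 and eIF2B subunits and the phosphatase passed (median -0.11, 1 at unadjusted p under 0.05, none by DESeq2 or limma), and the day 1 libraries alone gave 1 lower call, Ppp1r15a. Ppp1r15a, the inducible phosphatase subunit that reverses the phosphorylation by PKR, had 75.2 and 65.5 CPM in KO and 95.6 and 106 CPM in WT (log2 difference -0.52, adjusted p = 0.671). Among chaperones that the unfolded protein response induces, 19 of 22 had differences below 0, with a median of -0.19. Of these, Hspa5, the chaperone BiP, had 479 and 488 CPM in KO and 596 and 628 CPM in WT (log2 difference -0.34, adjusted p = 0.308). None of the 22 passed, 5 had an unadjusted p under 0.05, and neither DESeq2 nor limma called any, while the day 1 libraries alone called Dnajb9 lower.

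Heat shock genes, whose products refold proteins, had a median of -0.43, with 16 of 17 below 0. Both KO libraries lay below both WT libraries in these 16, against 26.1% of all genes. None passed, 4 had an unadjusted p under 0.05 and DESeq2 and limma called none. The day 1 libraries alone gave 2 lower calls (Dnaja1 and Hsph1), against 87 of 17127 over all genes. The inducible Hspa1a illustrates the spread, at 14.01 and 43.6 CPM in KO and 54.3 and 130.6 CPM in WT (log2 difference -1.68, SE 1.04, adjusted p = 0.683). Hspa8, its constitutive relative, had 1319 and 1416 CPM in KO and 1756 and 1929 CPM in WT (adjusted p = 0.459). Immediate-early genes, which respond to handling and dissociation, had a median of -0.26 with 18 of 24 below 0 and none called (5 at unadjusted p under 0.05, none by DESeq2 or limma). The day 1 libraries alone gave 5 of 24 called lower (Fos, Fosb, Klf2, Klf4 and Klf6), against 87 of 17127 over all genes. Fos stood at 108 and 122 CPM in KO and 197 and 172 CPM in WT. Their part in the other differences was not tested.

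Inflammatory cytokines and NF-kB targets gave no call among 30 genes (median 0.08, 1 lower at unadjusted p under 0.05, none by DESeq2 or limma). Cxcl10, an interferon-induced chemokine, had 11.97 and 7.50 CPM in KO and 15.5 and 11.8 CPM in WT. The genotypes overlapped for the cytokines Il6, Tnf, Il1b and Il10, and Il17a had 1 and 0 fragments in KO and 1 and 0 in WT. Cytosolic ribosomal protein genes had a median of -0.13 with 70 of 78 below 0 and none called (5 at unadjusted p under 0.05, none by DESeq2 or limma).

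Among cell type markers, edgeR's test over all 16 libraries called Ly6c2 and no other, and DESeq2 called Ly6c2 lower and Cd5l, a macrophage protein, higher. T cell markers had 23 of 25 differences below 0 (median -0.30, 4 at unadjusted p under 0.05, none by DESeq2 or limma). Both KO libraries lay below both WT libraries in 19 of the 25, against 26.1% of all genes. With the 4 day 1 libraries alone, edgeR called 4 of the 25 lower (Cd247, Cd3d, Cd3g and Cd8b1, parts of the T cell receptor complex and its coreceptor). Over all genes that fit called 87 of 17127 lower. Cd8a, the T cell coreceptor, had 22.1 and 17.4 CPM in KO and 28.4 and 31.2 CPM in WT (adjusted p = 0.238). B cell markers, the main class of spleen lymphocytes, summed to 3335 and 3404 CPM in KO and 3398 and 4058 CPM in WT, with a median of -0.15. The day 1 libraries alone gave 1 higher and 1 lower call among them (Fcrl5 and Cr2). Cr2, the complement receptor of B cells, had 136 and 135 CPM in KO and 182 and 219 CPM in WT (adjusted p = 0.208). All listed B and T cell markers had fragments. Proliferation genes and replication-dependent histone genes had medians of -0.02 and -0.01, and their medians between day 1 and day 0 were 2.13 and 1.65 in KO and 2.02 and 1.15 in WT.

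The medians of several myeloid lists depended on single libraries. Markers of marginal zone and metallophilic macrophages had a median of 0.29, with 8 of 9 above 0 and none called by edgeR's test. Their median was 0.23 to 0.69 on leaving out 1 day 1 library. It was above 0 in all 20 alternatives, the lowest being 0.02 (limma, FPKM + 1). The day 1 libraries alone kept 6 of the 9 for the test. Red pulp macrophage markers had a median of 0.41, with 17 of 20 above 0 and none called (5 at unadjusted p under 0.05, none by DESeq2 or limma). C1qc, a complement subunit made by macrophages, had 18.8 and 21.7 CPM in KO and 15.9 and 9.06 CPM in WT. Without WT replicate 2 the median of the red pulp list was 0.05, the lowest of 20 alternatives, all of them above 0. Neutrophil markers summed to 1348 and 1549 CPM in KO and 1455 and 680 CPM in WT. S100a9, an abundant neutrophil protein, had 572 and 607 CPM in KO and 604 and 279 CPM in WT, so that WT replicate 2 was low and WT replicate 1 was at the level of KO. The neutrophil median was 0.42 with all libraries, 1.05 without WT replicate 1 and -0.10 without WT replicate 2. The monocyte median was 0.26 with all libraries, -0.15 without KO replicate 2 and -0.07 without WT replicate 2. Complement and acute-phase genes had a median of 0.35 with all libraries and of -0.07 without WT replicate 2. Markers of pancreas, fat and gut summed to 3.23 and 9.70 CPM in KO and 4.63 and 4.98 CPM in WT.

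Among the transcript classes compared, TEC loci and sense intronic RNAs had the medians furthest from 0. TEC loci had a median log2 difference of 0.52, with 14 of 1111 called higher and 0 lower (14 lower at unadjusted p under 0.05, 372 higher), and both KO above both WT libraries in 668. Sense intronic RNAs had a median of 0.58, with 116 of 194 separated in the same way and none called (59 higher and 1 lower at unadjusted p under 0.05). Over all genes, 0.144% were called higher and 21.2% had both KO above both WT libraries. At unadjusted p under 0.05, 5.96% of all genes were higher and 3.2% lower. Coding transcripts had a median of -0.03 and long intergenic RNAs of -0.01. Medians were -0.20 for small nuclear RNAs, -0.28 for T cell receptor V segments and -0.17 for immunoglobulin V segments, with none called. The TEC loci summed to 2230 and 2144 CPM in KO and 1583 and 1529 CPM in WT, and the other 12 libraries held 2196 to 3317 CPM. The 2 WT libraries had the lowest sums of the series, and the KO libraries lay at the low end of the rest. The sums of sense intronic RNAs, at 982 and 907 CPM in KO and 922 and 1208 CPM in WT, did not separate the genotypes. From day 0 to day 1 the median TEC difference was -0.34 in KO and -0.89 in WT.

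The difference of a TEC locus varied with its position. Loci inside an intron of a coding gene on the same strand had a median of 0.67, with 698 of 771 above 0 and 13 of the 14 calls. Loci outside coding genes had a median of 0.14 (194 loci), and those inside a gene of the opposite strand -0.01 (52 loci). The host mRNAs stayed near 0. Over 759 intronic loci with a tested host, the median was 0.68 for the loci and -0.01 for the host mRNAs, and the locus exceeded its host in 700. Gm44664, in an intron of Prkcb, had 5.23 and 4.94 CPM in KO and 1.98 and 1.66 CPM in WT (log2 difference 1.48, adjusted p = 0.0442). Prkcb, a protein kinase C of B cells, had 116 and 114 CPM in KO and 101 and 104 CPM in WT (log2 difference 0.17, adjusted p = 0.691). Gm47138 and Gm47132, in introns of Foxn3, had log2 differences of 1.44 and 1.51, against 0.23 for Foxn3. The share of coding fragments, 43.2% to 45.7% in KO and 52.96% to 54.01% in WT, moved with this difference. Its part in the result was not tested, and genotype and library composition cannot be told apart on day 1.

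**Figure D3:**
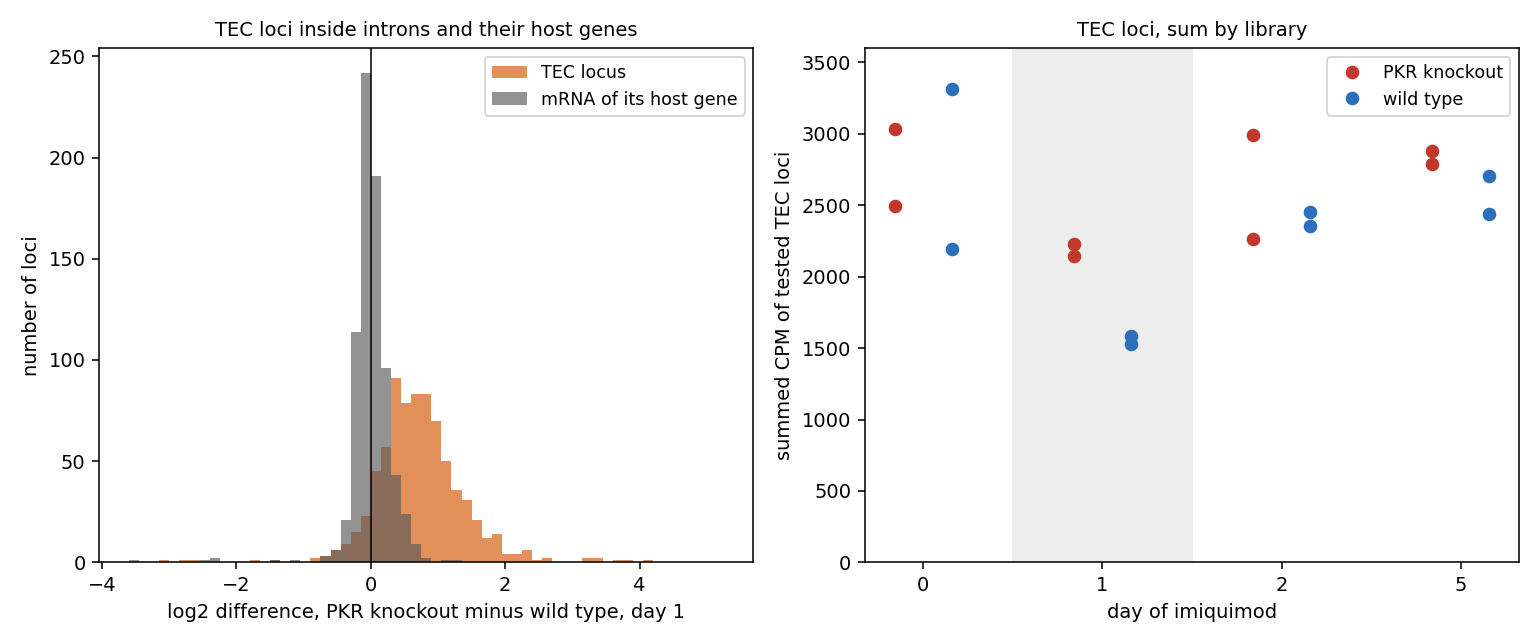
Left, number of TEC loci inside introns by log2 difference, KO minus WT on day 1, beside the mRNAs of their host genes; right, summed CPM of tested TEC loci in each library by day, KO left of WT. The loci have a median of 0.68 and their hosts of -0.01, and the 2 WT libraries of day 1 are the lowest of the 16.

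GC content of the transcript moved with the genotype difference as well. Coding genes were ordered by GC content into 10 bins of equal size. On day 1 the median was higher in each successive bin, at -0.13 in the bin with the lowest GC content and 0.09 in that with the highest. On day 0 the order was the reverse, at 0.20 in the lowest bin and -0.22 in the highest. Of the 9 coding genes called higher, 6 were in the 2 bins richest in GC, and no lower call was. With a correction for GC content 52 genes passed, 30 of them among the 35 of the uncorrected test. The median of the TEC loci was above 0 in all 18 alternatives that kept them, between 0.07 (limma, FPKM + 1) and 0.56 (upper-quartile scaling).

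**Figure D4:**
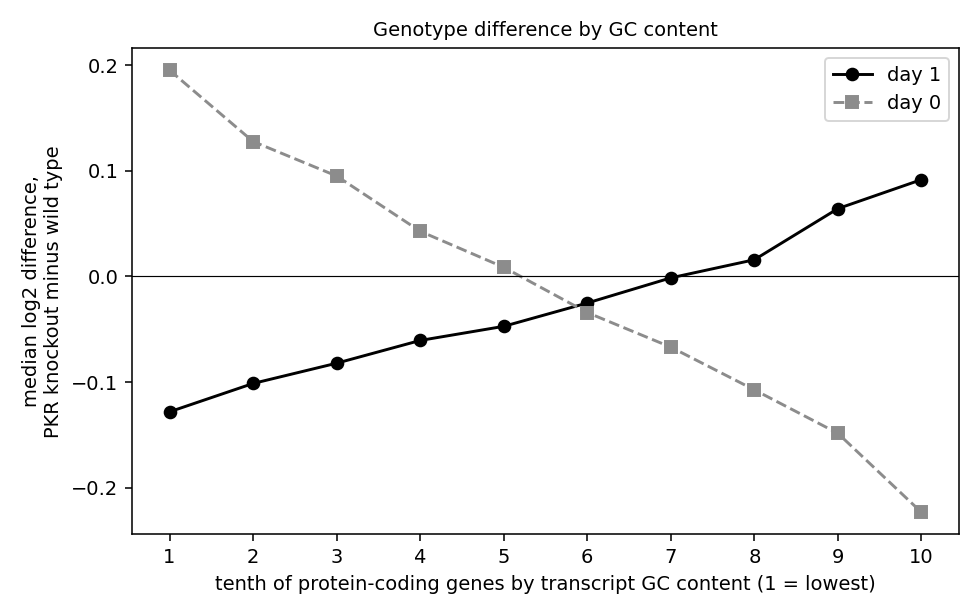
Median log2 difference, KO minus WT, in 10 equal bins of protein-coding genes ordered by transcript GC content (1 is lowest), on day 1 (black circles) and day 0 (grey squares). On day 1 the medians run from -0.13 to 0.09, and on day 0 from 0.20 to -0.22.

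The genotype difference of day 1 was also set against that of day 0. On day 0, 4 of the 18745 genes passed between KO and WT (0.0213%), Ide among them. The difference between the days passed in 32 genes (0.171%), 24 of them above 0, which means more positive on day 1. That split was 5 above and 13 below 0 with the 8 libraries of days 0 and 1 alone, and 13 above and 16 below without composition scaling. All 16 coding genes among them were above 0, 7 of the 32 were TEC loci, and 11 had also passed on day 1 itself. Bicra had 11.4 and 8.63 CPM in KO and 14.2 and 24.7 CPM in WT on day 0, so that its log2 difference was -0.95 on day 0 and 1.30 on day 1. The GC content was above 55% in 17 of the 32 genes, a share that was not counted over all genes. Its median was 57.5% in the genes above 0 and 49.65% in those below 0, against 49.3% over all genes tested. With the GC correction none passed by edgeR's test (2146 at unadjusted p under 0.05). DESeq2 called 216 without that correction, limma 0 with FPKM + 0.1 and 2 with FPKM + 1. The count was 3 without WT replicate 1 of day 1, 0 without WT replicate 2 or KO replicate 1, and 4 without KO replicate 2. Leaving out a day 0 library gave 376 without WT replicate 1, 1 without WT replicate 2, 105 without KO replicate 1 and 1 without KO replicate 2.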

How the data were processed

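The series holds 16 libraries of mouse spleen cell RNA (8 groups of 2), and the 4 of day 1 are compared here. The deposited tables give, per the file headers, a fragment count, a depth-scaled count (FPM) and an FPKM for each transcript, as computed by the authors. The submitters' processing notes name mm10, bcl2fastq 2.17.1.14, Trimmomatic, HISAT2 and TopHat. Which program counted the fragments is not given in the sources used here. Isoforms share fragments in the deposited counts, whose sums exceed the library totals, and 1 transcript was kept per symbol (the highest mean count among coding transcripts, otherwise among all). Library totals were taken as count over FPM, and ranged from 35026754 to 67333830 fragments.

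Counts were fitted with edgeR 4.0.16 (R 4.3.3; filterByExpr, TMM factors, robust quasi-likelihood F test) over all 16 libraries with 8 group means and 8 residual degrees of freedom, and p-values were adjusted by Benjamini-Hochberg over 18745 genes at 0.05. Every adjusted p without another tool named is from this fit. DESeq2 1.42.0 and limma 3.58.1 were alternatives. The scripts were checked on simulated counts. Members and gene lists were chosen with earlier results of these data known, so the lists are described by counts and medians. Named genes are Eif2ak2, up to 14 called genes in each direction with an FPKM of at least 1 and separated libraries (predicted genes and pseudogenes left out), up to 4 called or otherwise the 2 lowest-p members of each list, and a panel of cytokines and stress genes. Promoters are from RefSeq (GRCm38.p6), other annotation from GENCODE release M21. Some genes that the rule names are not reported here.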

Additional observations from a re-analysis of the deposited data

Results flagged for a closer look

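The genotype difference of day 1 differed from that of day 0 in 32 genes by the edgeR test of the difference itself (0.171% of those tested). Among the named genes, the day 1 minus day 0 difference was 2.25 for Bicra (KO minus WT 1.30 on day 1 and -0.95 on day 0) and 2.00 for Atn1 (1.40 and -0.60). It was -1.35 for Snora73b (-0.87 on day 1 and 0.48 on day 0) and -1.13 for its host Snhg3 (-0.45 and 0.67). Bicra and Atn1 have a GC content of 61.2% and 62.0%. With the GC correction no gene passed the test of the difference, while their day 1 differences were 1.21 for Bicra and 1.29 for Atn1, and the part of GC content was not tested further. On day 1 itself Bicra, Atn1 and Snora73b passed in none of the 4 fits that leave out a day 1 library.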

How the results depend on the processing

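Against 35 calls (27 higher and 8 lower in KO), the 4 day 1 libraries alone gave 331 (244 and 87), the data without day 2 gave 74 (57 and 17), no composition scaling 67 (24 and 43) and upper-quartile scaling 20 (16 and 4). DESeq2 gave 183 (157 and 26), limma 3 (1 and 2) with FPKM + 0.1 and 27 (5 and 22) with FPKM + 1. Of these 27, 11 were among the 35. No filter on low counts gave 432 (268 and 164), a minimum FPKM of 1 gave 14 (10 and 4), isoform sums 12 (8 and 4) and the GC correction 52 (42 and 10). DESeq2's size factors gave 35 and transcripts of any type 33. Chosen after seeing the data, coding transcripts alone gave 6 (5 and 1), and leaving out the library labelled KO day 2 replicate 1, whose Eif2ak2 level was 47.5 CPM, gave 98 (71 and 27). Leaving out 1 day 1 library gave 4 to 31 calls, 2 to 25 higher and 0 to 6 lower: 31 without WT replicate 1, 6 without WT replicate 2, 8 without KO replicate 1 and 4 without KO replicate 2. The lone sample left is then assumed to vary like the other groups. The replicate numbers do not pair the libraries by label, and the deviations of same-numbered day 1 libraries correlated at -0.18. A fit with the replicate block gave 86 calls (67 and 19), and 10 for the day 1 minus day 0 difference. That difference, with 32 calls, gave 18 in the libraries of days 0 and 1 (5 above and 13 below 0), 0 with the GC correction, 2 in coding transcripts, and 0 to 376 on leaving out 1 library. No value changed sign in a call. The causes were not tested. With 2 pools a group the precision is limited, and the bound given for Ifnb1 covers counting error only.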
